A study of Mus musculus with 10 samples.

Results

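TGF-beta, activins and bone morphogenetic proteins (BMPs) are secreted dimers of a single protein family, and the 45 genes described here encode their signalling machinery. They comprise 3 TGF-beta ligands, 4 latent TGF-beta binding proteins, 4 activin and inhibin beta subunits, 7 BMP ligands, 6 receptors of TGF-beta and activin, and 5 receptors or co-receptors of BMPs. The list goes on with 5 receptor-regulated Smads and Smad4 (6 genes), 2 inhibitory Smads, 4 antagonists and 4 target genes. The genes were listed by name, and each was represented by its probe set with exactly 1 gene symbol on the array. All 45 of 45 listed genes were measured, each by a single probe set, among 22180 genes in the table.

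The ligands bring type II and type I receptor kinases together, and the activated receptors phosphorylate receptor-regulated Smads, which join Smad4 and enter the nucleus. TGF-beta and activin act mainly through Smad2 and Smad3, and BMPs through Smad1, Smad5 and Smad9. In the developing mouse liver, TGF-beta activity near the portal vein promotes the differentiation of hepatoblasts toward duct cells, and BMP9, the product of Gdf2, comes mainly from hepatic stellate cells and acts on endothelium.

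The samples were portal tracts, the regions around the bile duct, portal vein branch and hepatic artery branch, isolated by laser capture from frozen livers of mice aged 1 week. A total of 12 to 20 tracts were pooled per replicate. The groups were 5 Jag1+/-Rfng+/- samples, from mice heterozygous for the Notch ligand gene Jag1 and for Rfng, which encodes a glycosyltransferase that modifies Notch, and 5 samples labelled control, with the strain C57Bl/6J. The strain of the Jag1+/-Rfng+/- mice, the type of their mutant alleles and the genotype of the controls beyond that word are not given in the sources used here, and no label says that each sample came from a separate mouse, so p-values measure only the spread between these samples. The stated aim was to compare remodelling and differentiation programmes between the groups.

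Each array gave a normalized log2 expression value per probe set, and the number of arrays, 10 in all, limits the precision. A gene that is absent can read up to 2.91 on this scale, the highest value of 3 Y-linked genes on arrays where Xist was high and of Xist on the others. Jag1 averaged 4.39 ± 0.63 in Jag1+/-Rfng+/- and 5.72 ± 0.93 in control, and Rfng averaged 4.36 ± 0.16 and 4.82 ± 0.20 in the same order (log2, SD, n = 5 each). Jag1+/-Rfng+/- array 5, whose sample name ends in excl, stood apart, its correlation across probe sets with each remaining array being 0.959 to 0.966, whereas pairs of the remaining 9 reached 0.969 or more. It held the lowest value of 19 of the 45 genes (42.2%), whereas it held the lowest value of 17.2% of all genes, and the median of the 45 genes on it lay 0.47 below the control mean. On it 3 erythroid marker genes averaged 2.75 above the control mean, whereas on the other 9 arrays they lay between 0.54 below and 0.50 above it. The sample names carry a number of unstated meaning, and 1 number is shared by 4 Jag1+/-Rfng+/- and 3 control arrays, and values within these arrays are given below. No other number occurs on more than 1 array, which allows no comparison.

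The tissue was checked against marker genes of the cells that a portal tract holds. The duct keratin Krt19 read 4.38 ± 0.23 in Jag1+/-Rfng+/- and 5.13 ± 0.56 in control, the elastin gene Eln of portal stroma 6.99 ± 0.87 and 8.24 ± 0.60, and the endothelial gene Pecam1 7.54 ± 0.15 and 7.36 ± 0.41 (log2, SD, n = 5 each). Hepatocyte RNA was also present, with Alb at 12.13 ± 0.05 and 12.22 ± 0.06. Of 14 measured portal fibroblast markers, 13 averaged lower in Jag1+/-Rfng+/- and 1 of the 14 lay within the range of absent genes. The mean level of the list ranged from 4.30 to 5.71 on Jag1+/-Rfng+/- arrays and from 5.13 to 6.25 on control arrays. Of the marker lists, only that of 6 neutrophil markers did not overlap between the groups, and narrowly so. Its mean level ran from 7.35 to 7.95 on Jag1+/-Rfng+/- arrays and from 6.66 to 7.31 on control arrays, with 4 of the 6 higher and 2 lower. In bulk samples such as these, fewer cells of a type and less RNA per cell cannot be told apart.

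No gene of the pathway passed the test at the level of the whole table. Of the 45 genes, 0 had an adjusted p under 0.05 (limma with Benjamini-Hochberg adjustment over 22180 genes, lowest adjusted p = 0.317), a threshold passed by 0.00902% of all genes. At an unadjusted p under 0.05 there were 3 genes, Gdf2 higher and Acvr2a and Smad5 lower, against 6.76% of all genes tested (2.98% higher and 3.79% lower), so that the count of 3 in 45 lay close to the background. The count was 7 (15.6%, against 7.11% of all genes) without Jag1+/-Rfng+/- array 4 and 6 (13.3%, against 5.54%) among arrays sharing a name number. The 6 included Grem1, which read within the range of absent genes on every array. With quantile normalization the count was 2 (4.44%, against 7.06%), and with trend and robust eBayes 2 (4.44%, against 6.68%). Among genes above the median level it was 2 of 41 (4.88%, against 7.65%). A difference of at least 1.5-fold was seen for 2 genes, Gdf2 and Tgfb3, against 2.16% of all genes. The median difference, Jag1+/-Rfng+/- minus control, was -0.07 over the 45 genes and -0.01 over all genes (log2), with 30 genes lower and 15 higher (66.7% lower, against 51.5% of all genes). Without Jag1+/-Rfng+/- array 5 the median over the 45 genes was -0.03. The plot of all differences shows the genes by role.

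**Figure D1:**
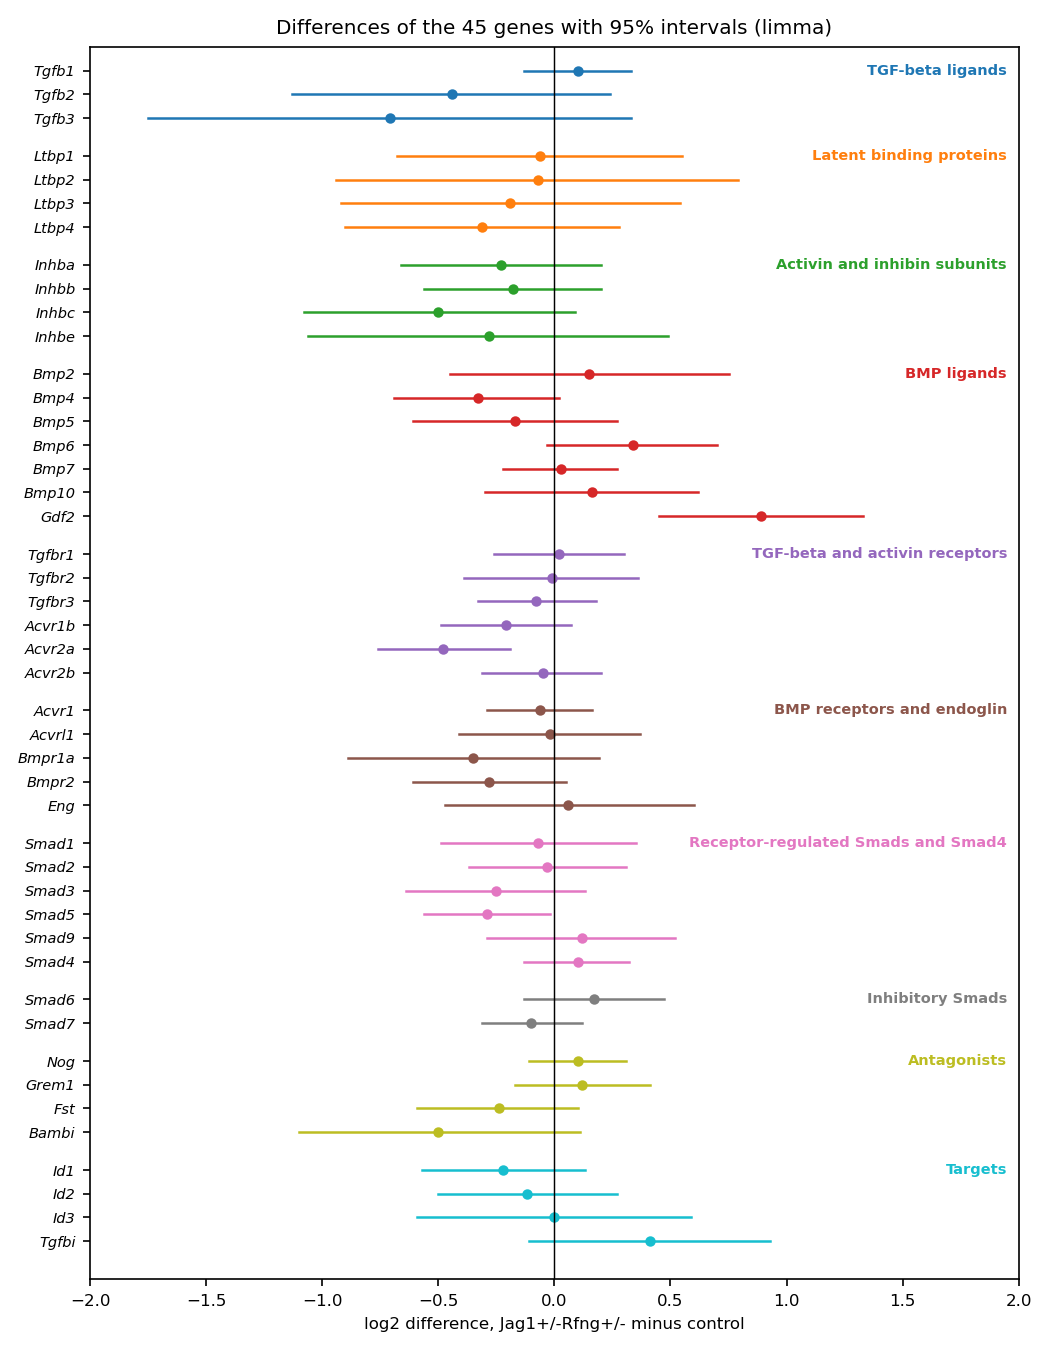
Log2 difference, Jag1+/-Rfng+/- minus control, of each of the 45 genes (points) with its 95% interval from limma (lines), by role. The intervals of Gdf2, from 0.45 to 1.33, Acvr2a, from -0.76 to -0.19, and Smad5, from -0.56 to -0.02, do not cross 0, and the widest interval is that of Tgfb3.

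Among the BMP ligands, Gdf2 showed the largest difference of the 45 genes. Gdf2 encodes BMP9, a circulating ligand of the endothelial receptor ALK1. It read 6.37, 6.16, 6.29, 6.49 and 5.79 on Jag1+/-Rfng+/- arrays 1 to 5, against 5.15, 5.17, 4.80, 5.88 and 5.65 on control arrays 1 to 5 (log2). The groups overlapped only in Jag1+/-Rfng+/- array 5, which read below control array 4. Gdf2 averaged 6.22 ± 0.27 in Jag1+/-Rfng+/- and 5.33 ± 0.43 in control (SD, n = 5 each), a difference of 0.89 ± 0.20 log2 (SE) or 1.85-fold (exact permutation p = 0.0159, two-sided, and limma adjusted p = 0.317; probe set 17298738, chromosome 14). The difference was 0.90 among arrays sharing a name number (limma adjusted p = 0.823), and it stayed between 0.76 and 1.03 in all 19 alternative settings, each with an unadjusted limma p under 0.05. Of 10 measured markers of hepatic stellate cells, 5 were higher and 5 lower. Their mean level ranged from 6.00 to 6.49 on Jag1+/-Rfng+/- arrays and from 6.39 to 6.52 on control arrays. This mean joined unlike differences, such as 0.14 for Lrat, 0.18 for Reln, -0.03 for Hand2, -0.18 for Colec11 and -0.87 for Rgs5. The part of stellate cells in the Gdf2 difference was not tested.

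Smad proteins bind short DNA motifs, and the 250 bases before the annotated start were read for them in the 2 members with the lowest p, Gdf2 and Acvr2a, a choice made after their values were seen. The Gdf2 window lies at chr14:33940789-33941038 on the plus strand and the Acvr2a window at chr2:48813859-48814108 on the plus strand, both from RefSeq with the build GRCm38.p6. Capitals mark every match to 4 motifs, searched on both strands: GTCT, CAGAC (which overlaps GTCT on the other strand), GGCGCC and GGCTCC.
Gdf2: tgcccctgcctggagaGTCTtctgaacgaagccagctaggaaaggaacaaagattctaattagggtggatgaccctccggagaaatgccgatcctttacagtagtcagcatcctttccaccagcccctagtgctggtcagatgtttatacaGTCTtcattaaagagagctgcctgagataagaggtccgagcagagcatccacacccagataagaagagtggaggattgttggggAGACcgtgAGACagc
Acvr2a: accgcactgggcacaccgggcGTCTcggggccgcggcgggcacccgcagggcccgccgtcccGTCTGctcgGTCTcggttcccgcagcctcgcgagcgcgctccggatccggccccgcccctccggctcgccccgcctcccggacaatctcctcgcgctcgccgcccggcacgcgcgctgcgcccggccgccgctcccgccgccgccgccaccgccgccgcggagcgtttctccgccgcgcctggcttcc
The Gdf2 window held GTCT 4 times on either strand and no match to the other motifs. The Acvr2a window held GTCT 3 times, 1 of them within CAGAC on the other strand, and none of the longer motifs. Among all 32851 promoter windows, GTCT occurred in 82.9%, CAGAC in 42.2%, GGCGCC in 9.59% and GGCTCC in 26.0%.

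None of the other BMP ligands had an unadjusted p under 0.05. Bmp4, a ligand of mesenchymal cells, read 5.32, 5.93, 5.91, 6.13 and 5.41 on Jag1+/-Rfng+/- arrays 1 to 5, against 5.88, 5.98, 6.30, 6.13 and 6.06 on control arrays 1 to 5. It was low on Jag1+/-Rfng+/- arrays 1 and 5, and the other 3 lay among the controls. The difference of Bmp4 was -0.33 ± 0.16 log2 (SE, limma adjusted p = 0.743). Bmp6, the ligand that drives hepcidin expression in hepatocytes, averaged 3.18 ± 0.32 in Jag1+/-Rfng+/- and 2.84 ± 0.25 in control (SD, n = 5 each), with 1 Jag1+/-Rfng+/- and 2 control arrays within the range of absent genes. Bmp2, an endothelial ligand of the same iron response, averaged 4.72 ± 0.69 and 4.58 ± 0.20 in the same order, with 5.82 on Jag1+/-Rfng+/- array 1 and 4.10 on array 5. Bmp10, which like BMP9 signals through ALK1, differed by 0.16 (95% interval from -0.30 to 0.62). Bmp5 and Bmp7 differed by -0.17 (from -0.61 to 0.27) and 0.03 (from -0.22 to 0.27). With Gdf2, 5 of the 7 BMP ligands were higher and 2 lower.

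The receptor gene with the clearest difference was Acvr2a, which encodes the type II receptor of activins and also binds BMP9. Acvr2a read 5.91, 5.90, 5.77, 5.52 and 5.56 on Jag1+/-Rfng+/- arrays 1 to 5, against 6.11, 5.95, 6.10, 6.35 and 6.53 on control arrays 1 to 5. Every Jag1+/-Rfng+/- array lay below every control array, the closest being Jag1+/-Rfng+/- array 1 and control array 2. Groups that did not overlap were seen for 1 of the 45 genes, and for 1.38% of all genes (0.766% lower and 0.618% higher). Acvr2a averaged 5.73 ± 0.18 in Jag1+/-Rfng+/- and 6.21 ± 0.23 in control (SD, n = 5 each), a difference of -0.48 ± 0.13 log2 (SE) or 1.39-fold (limma adjusted p = 0.446; two-sided exact permutation p = 0.00794, which is the minimum for groups of 5; probe set 17370598, chromosome 2). It was -0.44 among arrays sharing a name number (limma adjusted p = 0.823) and lay between -0.54 and -0.39 in all 19 alternative settings.

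**Figure D2:**
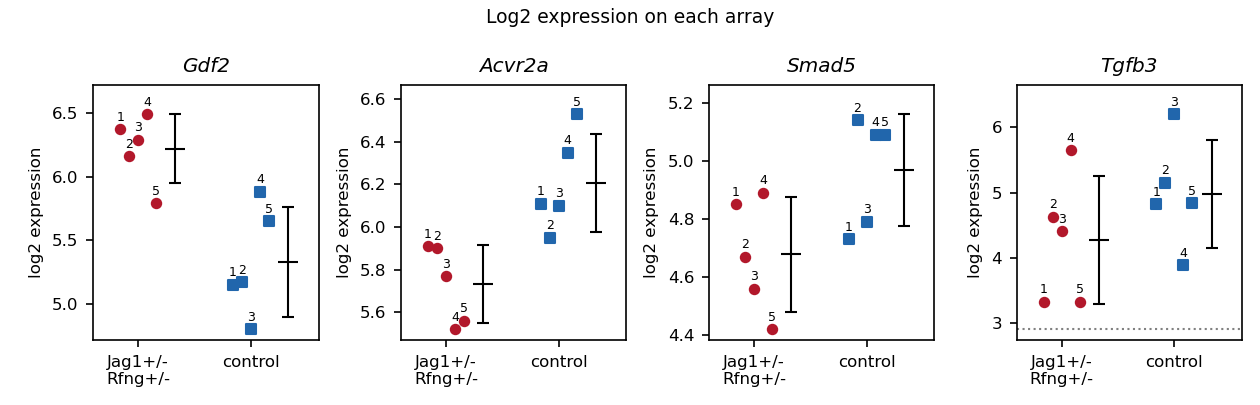
Log2 expression of Gdf2, Acvr2a, Smad5 and Tgfb3 on each array (red circles, Jag1+/-Rfng+/-; blue squares, control; numbers are replicates), with the group mean and SD in black and the highest reading of absent genes, 2.91, as a dotted line where it lies in range. Every Jag1+/-Rfng+/- array reads above at least 4 of the 5 control arrays for Gdf2, Acvr2a separates the groups, and Tgfb3 spreads widely within both.

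No other receptor of TGF-beta or activin had an unadjusted p under 0.05. The related activin receptor gene Acvr2b read between 2.87 and 3.27 on Jag1+/-Rfng+/- arrays and between 2.84 and 3.34 on control arrays, at the edge of the range of absent genes. Acvr1b, the type I receptor of activin, differed by -0.21 (95% interval from -0.49 to 0.07). The TGF-beta receptors Tgfbr1 and Tgfbr2 differed by 0.02 (from -0.26 to 0.30) and -0.01 (from -0.39 to 0.36). Tgfbr3, the co-receptor betaglycan, read 6.34, 6.11, 5.90, 6.32 and 6.01 on Jag1+/-Rfng+/- arrays 1 to 5, against 6.15, 6.46, 6.07, 6.13 and 6.27 on control arrays 1 to 5. Its groups overlapped throughout, and its interval ran from -0.33 to 0.18.

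No receptor of BMPs passed the test. Eng, the endothelial co-receptor endoglin, read 7.82, 7.92, 8.43, 8.67 and 7.16 on Jag1+/-Rfng+/- arrays 1 to 5, against 7.68, 8.27, 7.89, 8.09 and 7.77 on control arrays 1 to 5. The highest and the lowest reading of Eng were both in Jag1+/-Rfng+/-. Acvrl1, which encodes ALK1, differed by -0.02 (95% interval from -0.41 to 0.37). Markers of endothelium as a list averaged from 6.72 to 7.20 on Jag1+/-Rfng+/- arrays and from 6.64 to 6.99 on control arrays, with 7 of 10 markers higher. Bmpr2, the BMP type II receptor, differed by -0.28 (from -0.61 to 0.05), Bmpr1a by -0.35 (from -0.89 to 0.19) and Acvr1 by -0.06 (from -0.29 to 0.16). Bmpr1a read 4.81 on Jag1+/-Rfng+/- array 5 and at least 5.82 on the other 4.

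Tgfb2, Tgfb3 and the latent binding proteins, except Ltbp1 in control, varied widely among arrays of the same group, whereas Tgfb1 did not. Tgfb3, a ligand of mesenchymal cells, read 3.33, 4.63, 4.41, 5.65 and 3.33 on Jag1+/-Rfng+/- arrays 1 to 5, against 4.82, 5.15, 6.20, 3.89 and 4.84 on control arrays 1 to 5. It was low on Jag1+/-Rfng+/- arrays 1 and 5 and on control array 4, and high on Jag1+/-Rfng+/- array 4 and control array 3. Its difference was -0.71 ± 0.48 log2 (SE) or 1.64-fold (limma adjusted p = 0.825, exact permutation p = 0.254, two-sided; probe set 17282743, chromosome 12). The difference was -1.06 without Jag1+/-Rfng+/- array 4, -0.48 without Jag1+/-Rfng+/- array 1 or 5 and -0.41 without control array 3. Among arrays sharing a name number it was -0.58, or -0.18 when Jag1+/-Rfng+/- array 5 was left out.

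Tgfb2, a ligand of mesenchymal and epithelial cells, read 4.44, 5.23, 5.20, 6.12 and 5.22 on Jag1+/-Rfng+/- arrays 1 to 5, against 6.44, 5.79, 5.91, 4.88 and 5.41 on control arrays 1 to 5. The lowest Tgfb2 reading was again on Jag1+/-Rfng+/- array 1 and the lowest among controls on array 4. The difference of Tgfb2 was -0.44 ± 0.31 (log2, SE, limma adjusted p = 0.841) and -0.08 among arrays sharing a name number. It was -0.25 without control array 1 and -0.24 without Jag1+/-Rfng+/- array 1. Tgfb1, the ligand made by many cell types, varied less. It read 6.63, 6.47, 6.36, 6.54 and 6.35 on Jag1+/-Rfng+/- arrays 1 to 5, against 6.19, 6.57, 6.24, 6.38 and 6.44 on control arrays 1 to 5, with a 95% interval of the difference from -0.13 to 0.33.

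The latent TGF-beta binding proteins tether the inactive ligand to the matrix. Ltbp4, which is also needed for elastic fibre assembly, read 6.39, 6.73, 7.02, 7.56 and 6.73 on Jag1+/-Rfng+/- arrays 1 to 5, against 7.20, 7.53, 7.88, 6.44 and 6.92 on control arrays 1 to 5. The same arrays stood out as for Tgfb3: Jag1+/-Rfng+/- array 1 and control array 4 were low, and Jag1+/-Rfng+/- array 4 and control array 3 were high. Ltbp2 ranged from 5.16 to 7.28 in Jag1+/-Rfng+/- and from 5.24 to 6.86 in control, and Ltbp3 from 3.94 to 5.44 and from 3.99 to 5.69 in the same order. Ltbp1 ranged from 3.14 to 5.08 in Jag1+/-Rfng+/- and only from 3.85 to 4.19 in control. The 4 differences ran from -0.31 to -0.06, with limma adjusted p of at least 0.865, and the sign of 3 of them turned when 1 array was left out. Without Jag1+/-Rfng+/- array 1 the difference of Ltbp1 was 0.13 and that of Ltbp2 0.14, and without control array 3 that of Ltbp2 was 0.10 and that of Ltbp3 0.03. The within-group SD of Tgfb3, pooled over both groups, was 0.91, larger than that of 99.3% of all genes. The pooled SDs of Tgfb2, Ltbp1, Ltbp2, Ltbp3 and Ltbp4, from 0.50 to 0.75, were larger than those of 94.8% to 98.7% of genes. For Ltbp1 the SD was 0.73 in Jag1+/-Rfng+/- and 0.15 in control. The SD of Tgfb1, 0.14, was larger than that of 15.2% of genes. The median within-group SD was 0.31 for the 45 genes and 0.22 for all genes. Of the 45 genes, 41 lay above the median level of all genes, 3.74, and SDs at a matched level were not compared.

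Markers of smooth muscle varied over the same arrays, and those of portal fibroblasts over some of them. The mean of 6 smooth muscle markers lay 1.32 above the control mean on Jag1+/-Rfng+/- array 4 and 1.05 below it on array 1, and among controls 0.59 above on array 3 and 0.99 below on array 4. Its level ranged from 4.90 to 7.27 in Jag1+/-Rfng+/- and from 4.96 to 6.55 in control, with 2 of 6 markers higher and 4 lower. The portal fibroblast list lay 1.32 and 1.48 below the control mean on Jag1+/-Rfng+/- arrays 1 and 5, 0.47 above on control array 3 and 0.64 below on control array 4. On Jag1+/-Rfng+/- array 4 it lay 0.07 below. The hepatic stellate list lay 0.05 below the control mean on Jag1+/-Rfng+/- array 1, 0.04 above on array 4 and 0.45 below on array 5. Among controls it lay 0.02 above on array 3 and 0.02 below on array 4. The part of these cell types in the values of the TGF-beta ligands and latent binding proteins was not tested.

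**Figure D3:**
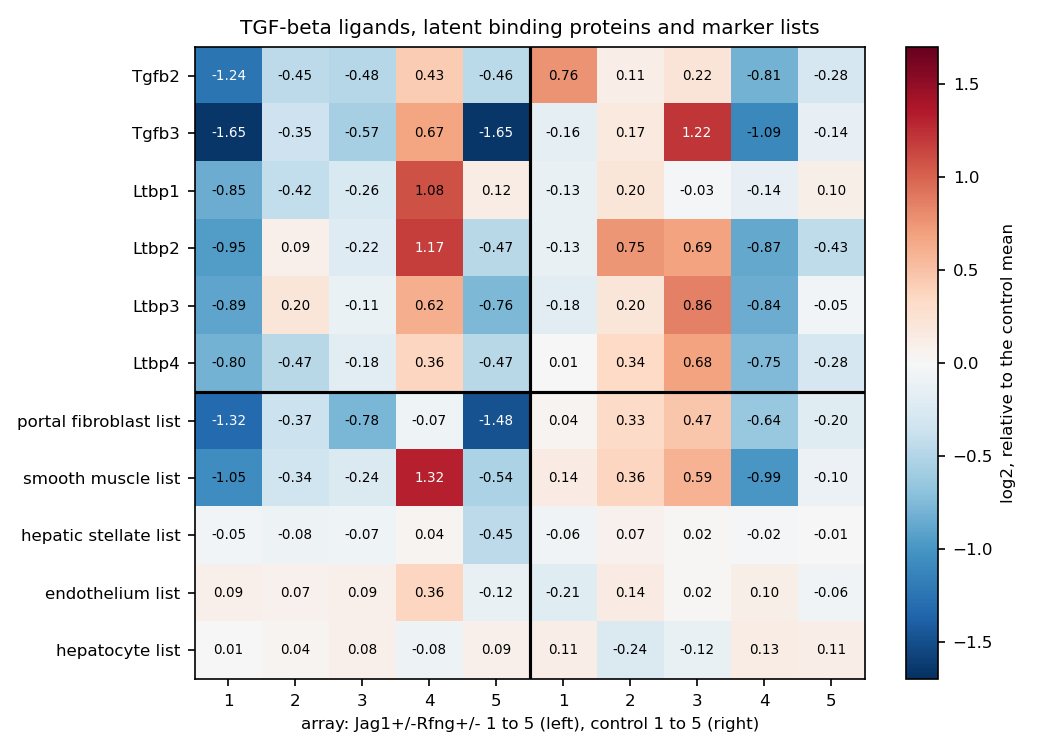
Log2 values relative to the control mean of Tgfb2, Tgfb3 and the 4 latent binding proteins (upper rows) and of the means of 5 marker lists (lower rows) on Jag1+/-Rfng+/- arrays 1 to 5 (left) and control arrays 1 to 5 (right). For each of the 6 genes, array 1 holds or shares the lowest and array 4 the highest Jag1+/-Rfng+/- reading, and array 4 the lowest control reading. For Ltbp1 the controls lie close together, from -0.14 on array 4 to 0.20, with array 1 at -0.13. On Jag1+/-Rfng+/- array 4 the smooth muscle list reads 1.32 above the control mean.

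None of the 4 activin and inhibin subunits passed the test. Their differences ran from -0.50 to -0.18, all below 0, as were those of 51.5% of all genes. That of Inhbe was 0.02 without Jag1+/-Rfng+/- array 1, and among arrays sharing a name number without Jag1+/-Rfng+/- array 5 that of Inhba was 0.02 and that of Inhbe 0.12. Inhbc, a beta subunit made by hepatocytes, read 6.60, 7.47, 7.43, 7.43 and 6.09 on Jag1+/-Rfng+/- arrays 1 to 5, against 7.26, 7.19, 7.50, 7.96 and 7.58 on control arrays 1 to 5. Jag1+/-Rfng+/- arrays 1 and 5 lay below every control, and the other 3 lay within the control range. Its difference was -0.50 ± 0.27 (log2, SE, limma adjusted p = 0.771) and -0.27 without Jag1+/-Rfng+/- array 5. Inhbe, the other beta subunit of hepatocytes, ranged from 5.47 to 7.48 in Jag1+/-Rfng+/- and from 6.16 to 7.69 in control. Inhba and Inhbb, which form activin A and activin B, differed by -0.23 (95% interval from -0.66 to 0.20) and -0.18 (from -0.56 to 0.20). Hepatocyte markers averaged from 9.94 to 10.12 on Jag1+/-Rfng+/- arrays and from 9.79 to 10.16 on control arrays.

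Among the Smads, Smad5, a transducer of BMP signals, was the member with an unadjusted p under 0.05. It read 4.85, 4.67, 4.56, 4.89 and 4.42 on Jag1+/-Rfng+/- arrays 1 to 5, against 4.73, 5.14, 4.79, 5.09 and 5.09 on control arrays 1 to 5. Controls 1 and 3 lay within the Jag1+/-Rfng+/- range, so the groups overlapped. The difference was -0.29 ± 0.13 (log2, SE, limma adjusted p = 0.706, exact permutation p = 0.0556, two-sided; probe set 17287848, chromosome 13), and the unadjusted limma p stayed under 0.05 in 6 of 19 alternative settings. Among arrays sharing a name number it was -0.37.

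Among the other transducers, Smad1 differed by -0.07 (95% interval from -0.49 to 0.35) and Smad9 by 0.12 (from -0.29 to 0.52). Of the TGF-beta transducers, Smad2 differed by -0.03 (from -0.37 to 0.31) and Smad3 by -0.25 (from -0.64 to 0.13). Smad4, the shared partner of the others, read 6.80, 6.71, 6.49, 6.63 and 6.54 on Jag1+/-Rfng+/- arrays 1 to 5, against 6.70, 6.60, 6.48, 6.33 and 6.58 on control arrays 1 to 5. Its range in both groups was narrow, and the interval of its difference ran from -0.13 to 0.32. The inhibitory Smads, which block the receptors and are themselves induced by the pathway, did not pass the test. Smad7 read 6.23, 6.46, 6.60, 6.52 and 6.38 on Jag1+/-Rfng+/- arrays 1 to 5, against 6.45, 6.52, 6.67, 6.44 and 6.58 on control arrays 1 to 5, with an interval from -0.31 to 0.12. Smad6 differed by 0.17 (from -0.13 to 0.47).

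Of the antagonists, noggin (Nog) and gremlin (Grem1), which bind BMPs, read within the range of absent genes on every array, at 2.03 to 2.30 and 2.43 to 2.79 in Jag1+/-Rfng+/- and 2.03 to 2.32 and 2.16 to 2.77 in control. Fst, which encodes the activin-binding protein follistatin, read 5.63, 5.54, 5.69, 5.59 and 4.95 on Jag1+/-Rfng+/- arrays 1 to 5, against 5.49, 5.50, 5.95, 5.73 and 5.94 on control arrays 1 to 5. Jag1+/-Rfng+/- array 5 was the low one, and the other 4 overlapped the controls. Bambi, a membrane pseudoreceptor that dampens TGF-beta and BMP signals, averaged 4.86 ± 0.53 in Jag1+/-Rfng+/- and 5.35 ± 0.50 in control (SD, n = 5 each). Its difference of -0.50 ± 0.28 (SE) did not pass (limma adjusted p = 0.775), and it was -0.79 among arrays sharing a name number and -0.31 without control array 4.

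Target genes of the pathway did not pass the test and lay on both sides of 0. Id1, Id2 and Id3, inhibitors of basic helix-loop-helix factors that BMP signals induce, differed by -0.22 (95% interval from -0.57 to 0.13), -0.12 (from -0.50 to 0.27) and 0.00 (from -0.59 to 0.59). Id2 read 8.34, 7.97, 7.81, 7.71 and 7.26 on Jag1+/-Rfng+/- arrays 1 to 5, against 7.65, 8.03, 7.93, 8.11 and 7.95 on control arrays 1 to 5. The highest and lowest reading of Id2 were Jag1+/-Rfng+/- arrays 1 and 5. Tgfbi, a matrix protein gene induced by TGF-beta, averaged 7.95 ± 0.57 in Jag1+/-Rfng+/- and 7.54 ± 0.25 in control (SD, n = 5 each). Jag1+/-Rfng+/- arrays 1 to 4 read 7.95 to 8.54, above the control range of 7.25 to 7.90, and array 5 read 7.02. The difference of 0.41 ± 0.24 (log2, SE, limma adjusted p = 0.789) became 0.64 without that array and 0.26 without Jag1+/-Rfng+/- array 4. Kupffer cell and macrophage markers, 7 of 8 higher, had a mean level from 6.60 to 7.90 on Jag1+/-Rfng+/- arrays and from 6.67 to 7.34 on control arrays. Their mean lay 0.85 above the control mean on Jag1+/-Rfng+/- array 1 and 0.44 below it on array 5. On Jag1+/-Rfng+/- arrays 2, 3 and 4 it lay 0.21, 0.16 and 0.24 above, array 4 holding the highest Tgfbi reading. The part of these cells in the Tgfbi values was not tested.

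Further genes of the pathway were taken from a list of 62, of which 54 were measured. Of these, 0 passed an adjusted p of 0.05 in limma, and 4 had an unadjusted p under 0.05 (2 higher, 2 lower), against 6.76% of all genes. Itgb8 encodes an integrin subunit that takes part in the activation of latent TGF-beta. It read 3.09, 3.33, 3.41, 3.65 and 2.99 on Jag1+/-Rfng+/- arrays 1 to 5, against 3.90, 3.92, 4.58, 4.26 and 4.30 on control arrays 1 to 5. The groups did not overlap, and the Jag1+/-Rfng+/- readings lay just above the range of absent genes. Such separation was seen for 1 of the 54 genes and for 1.38% of all genes (0.766% lower), so the count lay close to the background. Itgb8 averaged 3.29 ± 0.26 in Jag1+/-Rfng+/- and 4.19 ± 0.28 in control (SD, n = 5 each), a difference of -0.90 ± 0.16 log2 (SE) or 1.86-fold (exact permutation p = 0.00794, two-sided, the smallest possible, and limma adjusted p = 0.140; probe set 17284839, chromosome 12). It lay between -0.99 and -0.79 in all 19 alternative settings and was -0.91 among arrays sharing a name number. Biliary epithelium markers lay lower with it, 7 of 8 measured ones, against 51.5% of all genes. Of the 8, 1 averaged within the range of absent genes. The mean level of the list ran from 4.63 to 5.39 on Jag1+/-Rfng+/- arrays and from 5.24 to 6.00 on control arrays. The part of these markers' cells in the Itgb8 difference was not tested.

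The 250 bases before the Itgb8 start, at chr12:119238277-119238526 on the minus strand (RefSeq, GRCm38.p6), are shown as those of the pathway gene with the lowest p, with the same motifs in capitals.
Itgb8: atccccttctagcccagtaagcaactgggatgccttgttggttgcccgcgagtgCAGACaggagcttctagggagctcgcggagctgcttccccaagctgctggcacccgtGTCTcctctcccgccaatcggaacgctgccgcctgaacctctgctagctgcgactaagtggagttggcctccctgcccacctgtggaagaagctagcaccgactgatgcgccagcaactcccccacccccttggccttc
This window held GTCT 2 times on either strand, 1 of them within CAGAC, and neither GGCGCC nor GGCTCC.

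The other genes of the list with an unadjusted p under 0.05 were Tgif1, Hey1 and Bmp8a. Tgif1, a corepressor that binds Smads, read 5.52, 5.23, 5.27, 5.28 and 4.87 on Jag1+/-Rfng+/- arrays 1 to 5, against 5.12, 4.70, 4.83, 4.73 and 4.67 on control arrays 1 to 5. Jag1+/-Rfng+/- array 5 and control array 1 made the groups overlap, and the difference was 0.42 ± 0.13 (log2, SE, limma adjusted p = 0.543). Hey1, a transcription factor gene induced by Notch and by BMP9, averaged 4.75 ± 0.42 in Jag1+/-Rfng+/- and 5.50 ± 0.45 in control (SD, n = 5 each). Its difference was -0.75 ± 0.24 (SE, limma adjusted p = 0.564), and -0.29 among arrays sharing a name number. The BMP ligand gene Bmp8a differed by 0.35 ± 0.12 (SE, limma adjusted p = 0.616) and by 0.25 within those arrays.

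Hamp, the hepcidin gene and a BMP target of hepatocytes, was chosen after its values were seen, because it varied more than any other gene of the list. It read 11.76, 7.23, 6.22, 7.77 and 1.85 on Jag1+/-Rfng+/- arrays 1 to 5, against 5.72, 10.92, 8.57, 8.86 and 9.45 on control arrays 1 to 5. The highest and the lowest reading were both in Jag1+/-Rfng+/-, and array 5, with the high erythroid markers, read within the range of absent genes. A link between the Hamp and erythroid readings was not tested. Its difference of -1.74 ± 1.48 (log2, SE, limma adjusted p = 0.861) had a 95% interval from -4.96 to 1.49. Hjv, the BMP co-receptor gene that controls it, averaged 7.44 ± 0.12 in Jag1+/-Rfng+/- and 7.19 ± 0.20 in control (SD, n = 5 each), and did not pass (limma adjusted p = 0.739).

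**Figure D4:**
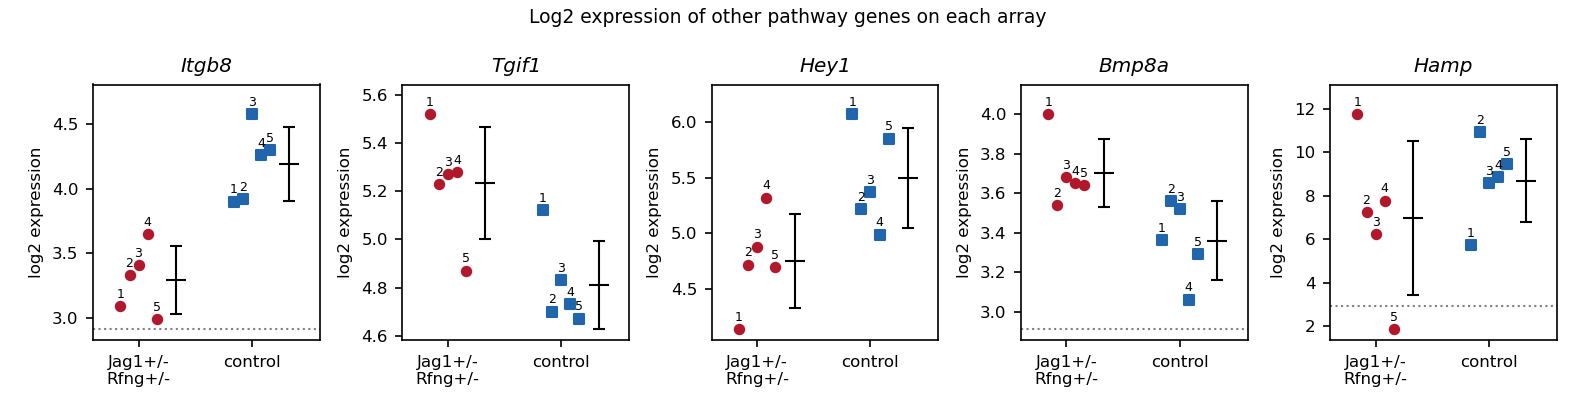
Log2 expression of Itgb8, Tgif1, Hey1, Bmp8a and Hamp on each array (red circles, Jag1+/-Rfng+/-; blue squares, control; numbers are replicates), with the group mean and SD in black and the highest reading of absent genes, 2.91, as a dotted line where it lies in range. Itgb8 is the gene here whose groups do not overlap, and Hamp spans 1.85 to 11.76 within Jag1+/-Rfng+/-.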

How the data were processed

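The deposited table gives log2 expression for 33649 probe sets on every array, in a range of 1.08 to 12.47. The tools RMA and Partek 6.6 appear, without their roles, per the submitters' processing notes. No detection call was used. All its columns belonged to samples (0 others). Gene symbols were those GEO's annotation of the platform gives (23521 probe sets with 1 symbol, 1814 with several, 8314 with none), and 23328 of the first matched a RefSeq gene by Entrez identifier. A gene with several probe sets was read from the one with the highest mean, giving 22180 genes.

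Differences were tested two-sided with limma 3.58.1 (lmFit, eBayes; R 4.3.3) and no covariate, adjusted over all genes, threshold 0.05. The procedure was tested on simulated data. Exact permutation tests of single genes used all 252 splits of the arrays. The members and lists were chosen with earlier results of these data known, so they are described by counts beside the background. Values on every array are given for members with an unadjusted p under 0.05, non-overlapping groups or at least 1.5-fold difference, and for the brightest of each role. Tgfb2 is also given on every array, outside this rule. Of the other list, genes with an unadjusted p under 0.05 are named, and Hamp, Hjv, Fbn2 and Thbs1 are named outside that rule. Promoters were meant to be shown only where members of a role moved together, without a set criterion for this. The 4 latent binding proteins and the 4 activin and inhibin subunits all averaged lower, none with an unadjusted p under 0.05. Promoters were instead shown for the lowest p. They come from RefSeq (33 of the 45 genes have one in the table used).

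Arrays with the same replicate number did not deviate together, with correlations across genes from -0.234 to 0.061, so the numbers were not taken as pairs. The settings varied were a replicate block, each array left out in turn, arrays sharing a name number, other normalizations, array weights, trend and robust eBayes, genes above the median level (3.74) and the mean of probe sets.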

Additional observations from a re-analysis of the deposited data

Results flagged for a closer look

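Among 100 groups of 5 arrays, 6 had an array far from the others, and chance flags about 1 in 20 such groups. On Jag1+/-Rfng+/- array 5 Bmpr1a read 4.81, against 5.82 to 6.15 on the other 4, and Fst read 4.95, against 5.54 to 5.69. On Jag1+/-Rfng+/- array 3 Acvr2b read 3.27, against 2.87 to 2.97, and on array 2 Nog read 2.03, against 2.24 to 2.30, the Nog readings lying within the range of absent genes. On control array 4 Bmp5 read 6.03, against 4.97 to 5.23 on the other 4, and on control array 5 Bmp2 read 4.94, against 4.44 to 4.54.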

How the results depend on the processing

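None of the 45 members passed the adjusted threshold in any of 19 alternatives (lowest limma adjusted p = 0.107, for Gdf2). Genes called over the whole table numbered 2, and 2 to 6 with an array left out (6 without Jag1+/-Rfng+/- array 2, 5 and 4 without control arrays 4 and 5), 11 with trend and robust eBayes, 5 with array weights, 11 among genes above the median level, and 0 in arrays sharing a name number without Jag1+/-Rfng+/- array 5 (limma, 1215 genes at an unadjusted p under 0.05). The members at an unadjusted p under 0.05, 3 in all, became 2 to 7 with an array left out, the 7 without Jag1+/-Rfng+/- array 4, where Tgfb2, Tgfb3, Bmp4 and Bambi joined them (15.6% of members, against 7.11% of all genes). In arrays sharing a name number they were 6 (13.3%, against 5.54% of all genes), and 5 without Jag1+/-Rfng+/- array 5 (11.1%, against 5.48%). Both shares lay above the background, whereas over all arrays 6.67% of members lay just below the 6.76% of all genes. The 6 were Gdf2, Acvr2a, Smad5, Bmp6, Bambi and Grem1, and the 5 were Gdf2, Acvr2a, Bmp6, Tgfbi and Grem1. Grem1 read within the range of absent genes on every array, and Bmp6 on some arrays. Other settings gave shares below the background. These were 4.44% of members (against 7.06% of all genes) with quantile normalization and 4.44% (against 6.68%) with trend and robust eBayes. Among genes above the median level the share was 4.88% (against 7.65%). The median difference over the members ran from -0.12 to -0.01. With the replicate block 4 members had an unadjusted p under 0.05 and 2 genes were called over the whole table, and 1 of 5 arrays correlated best with its own number. The sign of the difference changed in at least 1 alternative for 19 of 45 members, all with a difference of at most 0.28 in size. The cause of these changes was not tested. The number of arrays limits the precision, and the 95% intervals show by how much.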

Other observations

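Bmp6 differed by 0.34 over all arrays (limma unadjusted p = 0.0663) and by 0.56 among arrays sharing a name number (limma unadjusted p = 0.0137), with control readings at the edge of the range of absent genes. Fbn2, which encodes a fibrillin of the microfibrils that hold latent TGF-beta, averaged 4.92 ± 0.67 in Jag1+/-Rfng+/- and 5.79 ± 0.88 in control (log2, SD, n = 5 each), 1.82-fold lower (limma adjusted p = 0.741). Thbs1, an activator of latent TGF-beta, averaged 6.19 ± 0.51 and 5.75 ± 0.88 in the same order, with 4.36 on control array 4.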
